A study of Sus scrofa with 14 samples.

Results

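This is a set of 57 genes, of 19588 in the table, that were read in porcine pluripotent stem cell lines of different origin and were near absent from the other lines of the study. The members were chosen by their measured levels: a mean normalized count of at least 40 in Epi-piPSC-FLB2i as well as in both pESCLC-FL6i and pESCLC-FLB2i, and below 15 in each of the remaining groups, which were Epi-piPSC-FL6i, Lv-piPSC-F, pESCLC-F and pESCLC-primary. A normalized count is the number of read pairs on a gene divided by 1 factor per sample for sequencing depth. It is not divided by gene length, so the levels of members are compared below only within a gene. Sums over lists of genes, and shares of such sums, give more weight to long or abundant genes. Of the 57 members, 42 had a gene symbol and 15 had only an Ensembl identifier. The level that chose a gene is no result, so every difference between the 3 groups with the members on and the 4 groups with the members off is given as a description, with no test.

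RNA-seq was performed on 14 samples, 2 in each of 7 groups, from cultures kept on irradiated mouse embryonic fibroblasts as feeder cells. The pESCLC-primary samples were primary outgrowths of blastocysts, with no passage given, and the pESCLC-F samples were embryonic stem cell-like lines kept in F, a medium with FGF2, at passage 2. For pESCLC-FL6i, primary outgrowths were moved at day 8 into FL6i, which holds FGF2, LIF and inhibitors of p38, JNK, MEK, GSK3, TGFB and BMP signaling. For pESCLC-FLB2i, cells in FL6i were moved again at day 18 into FLB2i, which holds FGF2, LIF, BMP4 and inhibitors of GSK3 and TGFB signaling. Lv-piPSC-F carried lentiviral reprogramming genes and grew in F, with passage 46 given for 1 of its samples. The Epi-piPSC lines were made from fetal fibroblasts with episomal plasmids that carried human reprogramming genes, and were grown in FLB2i or in FL6i. In each of the 3 groups with the members on, the label codes name 1 line at different passages. The pESCLC-FLB2i line was at passages 3 and 6, that of pESCLC-FL6i at 3 and 9, and that of Epi-piPSC-FLB2i at 9 and 12, and values are given below in this order of passage. The Epi-piPSC-FL6i samples carried codes of different lines, at passages 12 and 11. A difference between these groups is therefore a difference between single lines, and line, origin, medium and passage cannot be told apart. P-values measure only the spread between samples, which here holds the passages.

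Members such as ZIC1, OLIG3, NEUROG1, NEUROD4 and DLL3 are known from the developing nervous system. In the neural tube, patterning factors of the ZIC, OLIG and HOX families mark position, proneural factors of the NEUROG and NEUROD families push progenitors to leave the cell cycle and become neurons, and Notch signaling between neighbouring cells holds other progenitors back. Neurons then make ion channels, receptors, transmitter enzymes, neuropeptides and adhesion molecules that set their contacts.

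Samples had 6193659 to 58878377 read pairs on genes, the fewest in pESCLC-FL6i at passage 9. The members took 0.178 to 0.289% of these reads in the 4 pESCLC samples in inhibitor media and 0.0664 to 0.0696% in Epi-piPSC-FLB2i, against 0.000737 to 0.00187% in the 8 samples with the members off. Checked against their labels, the pESCLC lines in inhibitor media had little of the pluripotency markers that could be matched. NANOG stood at 7.86 to 24.6 there and at 25.9 and 36.9 in Epi-piPSC-FLB2i, against 178 to 343 in pESCLC-primary and pESCLC-F and 418 and 847 in Lv-piPSC-F, while Epi-piPSC-FL6i had 0.965 and 0.999. LIN28A stood at 0 to 32.3 in the 4 pESCLC samples in inhibitor media, at 2209.5 and 1940.2 in Epi-piPSC-FLB2i, and at 4975 to 11450 elsewhere. The episomal plasmids carried human LIN28, and the paper still detected plasmid LIN28 in Epi-piPSC lines. Whether reads from it were counted on LIN28A in the Epi-piPSC samples was not tested. POU5F1 and SOX2 were not matched to the table by symbol and were not analysed here.

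In 51 of the 57 members, the lowest of the 6 samples with the members on lay above the highest of the 8 others, which the rule made likely. Of all 19588 genes, 5.02% had this order. The 6 exceptions included DACH2 and TMPRSS7, each with its low value in pESCLC-FL6i at passage 9. Of the 57 members, 30 had their highest group mean in pESCLC-FL6i, 20 had it in pESCLC-FLB2i and 7 in Epi-piPSC-FLB2i. With both samples of every group held to the thresholds in place of the mean, 19 of the 57 stayed. At the edge of the rule, the means of the lowest group with the members on were 40.8 for ENSSSCG00000037981, 40.9 for ENSSSCG00000012229 and 41.7 for HTR2A, all in Epi-piPSC-FLB2i. Just outside lay NPY at 39.5, MYOM2 at 39.1 and TFEB, which had 16.1 in Epi-piPSC-FL6i.

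**Figure D1:**
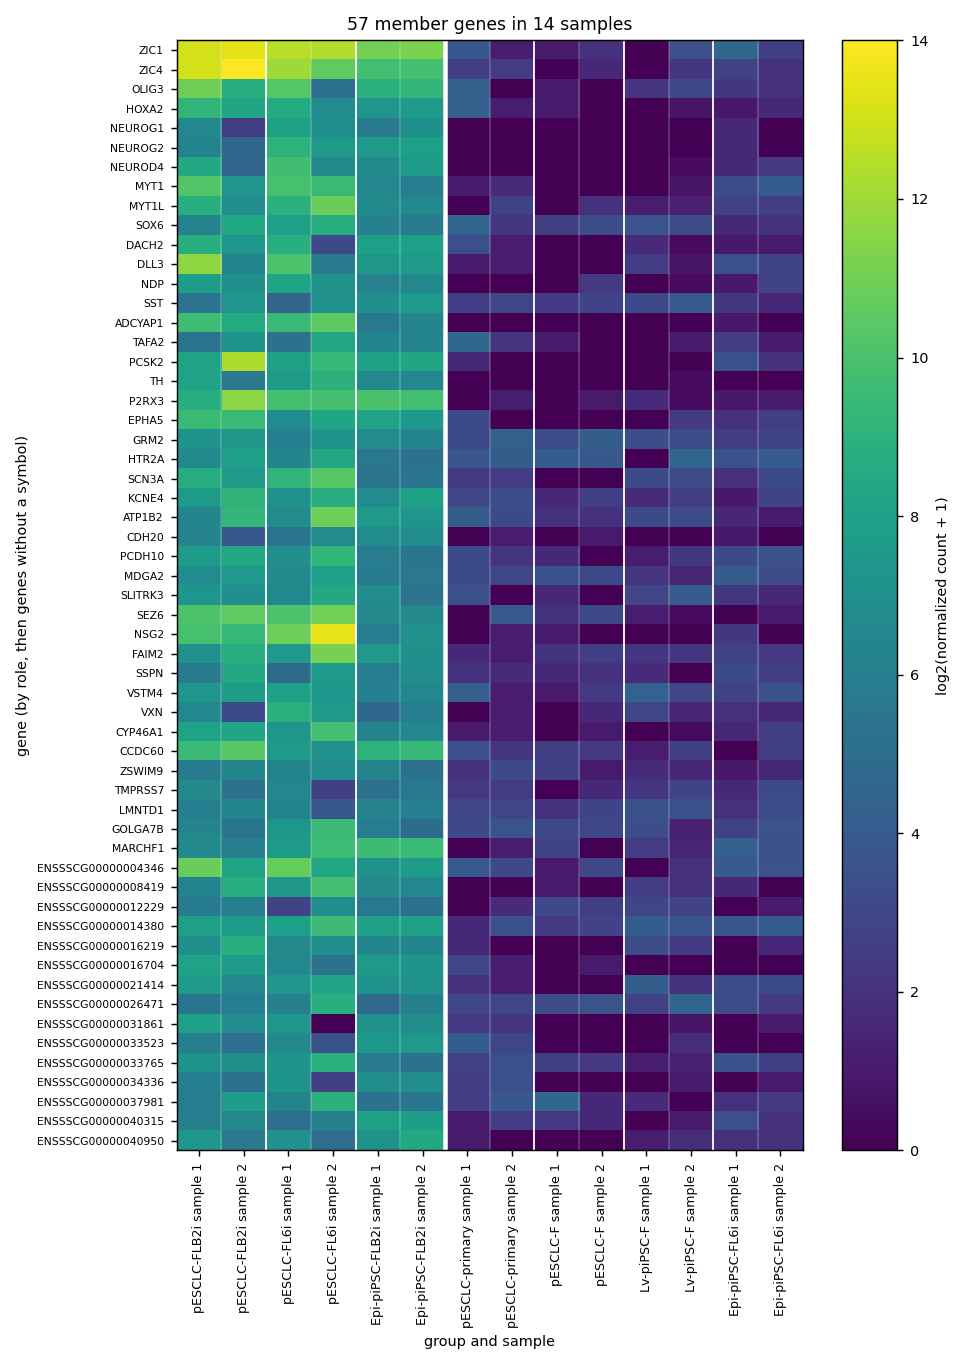
Heat map of log2(normalized count + 1) for the 57 members (rows, by role and then those without a symbol) in the 14 samples (columns). The 6 columns left of the thick line are the groups with the members on, and pESCLC-FL6i sample 2 (passage 9) is dark for DACH2, TMPRSS7 and some genes without a symbol.

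Of the 42 members with a symbol, 36 were placed on the Sscrofa11.1 assembly by the RefSeq annotation, on 14 chromosomes with at most 6 on one. The transcription factor genes ZIC1 and ZIC4, zinc finger genes of the dorsal neural tube, are neighbours. ZIC4 runs on the minus strand at chr13:87725642-87740724 and ZIC1 on the plus strand at chr13:87740769-87750258, so that their annotated starts face away from each other with 44 bases between them. SSPN (chr5:47566266-47609330, minus strand) and LMNTD1 (chr5:47842173-48399901, plus strand) lie 232842 bases apart. Other members on the same chromosome were at least 4233834 bases apart, the distance of FAIM2 and NEUROD4. ZIC4, FAIM2, ADCYAP1, LMNTD1, GOLGA7B and HTR2A each overlap an annotated gene on the other strand, and their counts are uncertain, since the counting is described only as run with default settings and its strand setting is not named in the sources used here.

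The stretch shared by the ZIC pair is shown because both genes start in it and both were high in all 6 samples with the members on. It is read on the plus strand of chr13:87740675-87740818 and the capitals mark the bases between the annotated starts.

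ZIC4-ZIC1: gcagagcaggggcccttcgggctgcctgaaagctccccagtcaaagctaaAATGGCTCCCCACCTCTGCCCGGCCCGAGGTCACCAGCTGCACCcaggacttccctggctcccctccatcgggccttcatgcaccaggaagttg

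Promoters of NEUROD4, a proneural-type factor, and of TH, tyrosine hydroxylase, the rate-limiting enzyme of catecholamine synthesis, are shown as examples of a regulator and of a neuronal gene. Each holds 250 bases before and 50 after the annotated start, on the gene's own strand: chr5:20046614-20046913, plus strand, for NEUROD4, and chr2:1506131-1506430, minus strand, for TH. Capitals mark the E-box CAGCTG in NEUROD4, a type of site that proneural factors are known to bind, and the TATA box TATAAA in TH.

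NEUROD4: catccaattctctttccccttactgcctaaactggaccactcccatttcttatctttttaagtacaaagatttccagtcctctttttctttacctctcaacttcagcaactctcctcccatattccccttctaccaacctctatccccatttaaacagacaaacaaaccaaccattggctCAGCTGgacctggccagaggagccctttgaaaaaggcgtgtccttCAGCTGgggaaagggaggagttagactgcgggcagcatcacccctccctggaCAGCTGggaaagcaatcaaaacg

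TH: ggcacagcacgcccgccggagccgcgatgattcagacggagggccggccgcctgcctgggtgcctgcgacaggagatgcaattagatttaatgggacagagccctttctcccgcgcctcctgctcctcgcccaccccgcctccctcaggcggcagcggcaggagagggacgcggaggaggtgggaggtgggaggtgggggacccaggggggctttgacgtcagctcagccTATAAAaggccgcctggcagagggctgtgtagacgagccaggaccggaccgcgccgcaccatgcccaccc

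NEUROD4 held 3 such E-boxes. On both strands, the E-boxes CAGATG or CAGCTG were found in 12 of the 36 member promoters (33.3%) and in 28.1% of 19506 promoters of the same length over all protein-coding genes. The TCF/LEF motif CTTTGAT, of the factors through which WNT signals act, was found in 0 of 36 members and 2.42% of all promoters. CAGCACC, a part of the REST site, was found in 1 member, SEZ6, and in 6.98% of all. TATAAA was found in 6 members (16.7%) and in 10.9% of all, and the GC box CCGCCC in 15 members (41.7%) and 50.6% of all. A ratio of observed to expected CG pairs of at least 0.6 was seen in 15 of 36 member promoters (41.7%) and in 54.2% of all. These are descriptions of letters in a window and say nothing of binding.

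Among the 11 transcription factors, ZIC1 was read at 8620.2 and 11192 in pESCLC-FLB2i (passages 3 and 6), at 5779 and 5321 in pESCLC-FL6i (passages 3 and 9), and at 2140.2 and 2404 in Epi-piPSC-FLB2i (passages 9 and 12), with 0 to 23.2 in the other samples. ZIC4 was read, in the same order, at 8678 and 18695, 4139 and 1504, and 896 and 902, with 0 to 5.79 elsewhere. Both were highest in pESCLC-FLB2i and lowest in Epi-piPSC-FLB2i, and no sample of one of the 3 lines overlapped with another line.

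OLIG3, a factor of dorsal neural progenitors, was read at 1971 and 461 in pESCLC-FLB2i, at 1275 and 34.1 in pESCLC-FL6i, and at 485 and 621 in Epi-piPSC-FLB2i. HOXA2, a HOX gene that patterns the anterior hindbrain, was read at 564 and 309, 389 and 107, and 154 and 182. In both genes the later pESCLC-FL6i sample was lowest of the 6, and the ranges of the lines overlapped. Their highest values outside the 3 groups, 18.7 for OLIG3 and 17.7 for HOXA2, were both in 1 pESCLC-primary sample.

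The proneural gene NEUROG1 was read at 90.8 and 4.93 in pESCLC-FLB2i, at 249.6 and 126 in pESCLC-FL6i, and at 53.8 and 127 in Epi-piPSC-FLB2i. Its relative NEUROG2 was read at 80.02 and 25.6, 537 and 183, and 191 and 248. NEUROD4, known to act after them, was read at 342 and 22.7, 843 and 102, and 99.4 and 213. For all 3 genes, pESCLC-FLB2i at passage 6 was the lowest of the 6 samples and pESCLC-FL6i at passage 3 the highest. NEUROG1 and NEUROG2 each had 2 reads in all over the 8 samples with the members off, and 7 of these samples were at 0, which allows up to 3 reads in each of them, for counting error only.

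MYT1 and MYT1L are zinc finger factors of neuronal differentiation. MYT1 was read at 1161 and 159, 970.2 and 684, and 89.0 and 60.9, and MYT1L at 455 and 117, 497 and 1776, and 97.3 and 96.8. Both stood lower in the 2 Epi-piPSC-FLB2i samples than in any pESCLC sample in inhibitor medium. The remaining factors, SOX6 and DACH2, had group means of 60.8 to 326 and 222 to 297 in the 3 lines.

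Among ligands, DLL3, an atypical Notch ligand of differentiating progenitors, was read at 3211 and 77.8 in pESCLC-FLB2i, at 1041 and 55.0 in pESCLC-FL6i, and at 172 and 195 in Epi-piPSC-FLB2i. The earlier passage was far above the later one in both pESCLC lines, and the Epi-piPSC-FLB2i samples lay between. ADCYAP1, which encodes the neuropeptide PACAP, was read at 814 and 384, 709 and 1496, and 48.6 and 83.0, and had 1 read over the 8 other samples. SST, the peptide somatostatin, was read at 40.0 and 157, 22.0 and 136, and 130.4 and 199. NDP, the secreted Frizzled ligand norrin, had 72.4 to 283 over the 6 samples, and TAFA2, a secreted protein of the brain, had 36.7 to 327.

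The transmitter and peptide enzymes were TH and PCSK2, a protease that processes prohormones. TH was read at 278 and 48.3, 199 and 516, and 95.2 and 93.1, with 1 read in all over the 8 other samples. PCSK2 was read at 289 and 4902, 245 and 660.2, and 259 and 301, with its high value in pESCLC-FLB2i at passage 6.

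The receptors, channels and pumps were P2RX3, an ATP-gated channel of sensory neurons, the ephrin receptor EPHA5, the glutamate receptor GRM2, the serotonin receptor HTR2A, the sodium channel SCN3A, the potassium channel partner KCNE4 and the sodium pump subunit ATP1B2. P2RX3 was read at 421 and 2999, 915 and 946, and 1021 and 871, and the 3 lines overlapped. SCN3A was read at 403 and 181, 580.0 and 1326, and 41.4 and 43.3, and both Epi-piPSC-FLB2i samples were below the pESCLC samples. EPHA5 was read at 739 and 679.9, 110.1 and 314, and 265 and 172, highest in pESCLC-FLB2i. KCNE4 was read at 200.04 and 552, 140.5 and 458, and 106 and 255. In each line its later sample was the higher. ATP1B2 was read at 83.1 and 624, 106 and 1926, and 192 and 156. Its later sample was the higher in both pESCLC lines. GRM2 had 66.1 to 170.5 and HTR2A 36.9 to 333 over the 6 samples, with up to 18.6 and 23.0 elsewhere.

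Of the adhesion and membrane proteins, SEZ6, a neuronal surface protein, was read at 1099 and 1543, 1032 and 2054, and 95.2 and 95.0. NSG2, a protein of neuronal endosomes, was read at 962 and 636, 1939 and 11980.3, and 59.0 and 137. For both, the Epi-piPSC-FLB2i samples were below every pESCLC sample in inhibitor medium, and for NSG2 1 sample, pESCLC-FL6i at passage 9, stood far above the rest. The cadherins CDH20 and PCDH10 had 12.8 to 115 and 41.5 to 605 over the 6 samples. SLITRK3 and MDGA2, proteins of the synapse, had 39.7 to 364 and 47.0 to 238, and FAIM2 had 130.03 to 2253, its highest in pESCLC-FL6i at passage 9. SSPN had 30.4 to 349 and VSTM4, an immunoglobulin domain protein, 71.4 to 249. Among the other members were CYP46A1, the cholesterol hydroxylase of neurons, with group means of 84.1 to 524, and MARCHF1, a ubiquitin ligase known from antigen-presenting cells, with 83.4 to 763. GOLGA7B, a palmitoylation cofactor, had 29.5 to 744, LMNTD1 13.1 to 79.7 and ZSWIM9 37.8 to 107 over the 6 samples. The 15 members without a symbol had group means of 40.8 to 1030.4 in the 3 lines, and 6 of them were highest in pESCLC-FL6i, 5 in pESCLC-FLB2i and 4 in Epi-piPSC-FLB2i.

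The first comparison asked how the members differed between the embryo-derived lines in FL6i and in FLB2i. By limma, 0 of 57 members were called at an adjusted p of at most 0.05, and 0% of the 14495 genes tested were. At an unadjusted p under 0.05 there were 9 members, and 4.58% of all genes. DESeq2 on the recovered reads called 2 members and 1.13% of all genes, while edgeR called 0 of either, with 9 members at an unadjusted p under 0.05. The 2 members were NSG2, higher in FL6i (log2 fold change 3.10, DESeq2 adjusted p = 0.0412), and CCDC60, a coiled-coil protein gene that was lower (-2.70, DESeq2 adjusted p = 0.00186). CCDC60 was read at 743 and 1371 in pESCLC-FLB2i and at 189 and 139 in pESCLC-FL6i. The median log2 fold change of the members was 0.16, against -0.0013 for all genes, with 32 members above 0 and 25 below. The values of single members ran from -3.74 to 3.38, and a p that misses the threshold does not show that the lines were alike.

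In the second comparison, of Epi-piPSC-FLB2i with pESCLC-FLB2i, both lines were in FLB2i. They differed in origin and in passage (9 and 12 against 3 and 6), and only pESCLC-FLB2i had been in FL6i before. These differences cannot be told apart. Of the 57 members, 9 were lower in Epi-piPSC-FLB2i and 2 were higher, by limma with Benjamini-Hochberg adjustment. Over all 14397 genes tested, 6.67% were called lower and 4.24% higher. SEZ6 had a log2 fold change of -3.76 (SE 0.26, adjusted p = 0.0108) and ZIC4 of -3.82 (SE 0.38, adjusted p = 0.0154). ZIC1 fell less, by 2.11 on the log2 scale (SE 0.20, adjusted p = 0.0145). Also lower were ADCYAP1 (-3.12), NSG2 (-3.11), SCN3A (-2.65), PCDH10 (-2.42), CYP46A1 (-1.80) and EPHA5 (-1.73), with adjusted p between 0.0286 and 0.0364. MARCHF1 was higher by 3.23 (SE 0.34, adjusted p = 0.0158), with 105 and 62.1 in pESCLC-FLB2i against 770.0 and 756 in Epi-piPSC-FLB2i, as was ENSSSCG00000040315 by 1.57 (adjusted p = 0.0477). The median member stood at -0.76, against -0.014 for all genes, and 43 of the 57 were below 0. By role, 7 of 7 receptors, channels and pumps lay below 0 with 2 called, 8 of 9 adhesion and membrane proteins with 3 called, and 8 of 11 transcription factors with 2 called, ZIC1 and ZIC4. By limma, 0 members were called without the Epi-piPSC-FLB2i sample of passage 9 or that of passage 12 (12 and 10 at an unadjusted p under 0.05), and 36 or 27 without the pESCLC-FLB2i sample of passage 3 or of passage 6, where 39.7% and 31.6% of all genes were called. In a bulk sample, fewer cells of a type and less RNA per cell cannot be told apart.

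Epi-piPSC-FLB2i was also set against pESCLC-FL6i, which shares the Epi-piPSC-FLB2i samples with the comparison above and so is no second test of them. By limma, 4 members were lower and 0 higher, against 1.83% and 0.72% of the 14579 genes tested. They were SCN3A (-4.34, SE 0.52), ADCYAP1 (-4.00, SE 0.53), SEZ6 (-3.92, SE 0.43) and MYT1 (-3.45, SE 0.39), with limma adjusted p of 0.0454 to 0.0494. All 4 lie close to the threshold, and edgeR called 0 members, with 23 at an unadjusted p under 0.05. NSG2 had the lowest log2 fold change, -5.73 (SE 1.00), which was not called (adjusted p = 0.0622), its pESCLC-FL6i samples being far apart. ZIC4 stood at -1.47 and ZIC1 at -1.29 in this comparison. The proneural genes gave -1.09 for NEUROG1, -0.52 for NEUROG2 and -1.01 for NEUROD4 against pESCLC-FL6i, and 1.85, 2.24 and 0.70 against pESCLC-FLB2i, none of them called. Without either Epi-piPSC-FLB2i sample limma called 0 members (7 at an unadjusted p under 0.05 each time), and without the pESCLC-FL6i sample of passage 3 or of passage 9 it called 40 or 27, where it called 58.6% and 34.4% of all genes.

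**Figure D2:**
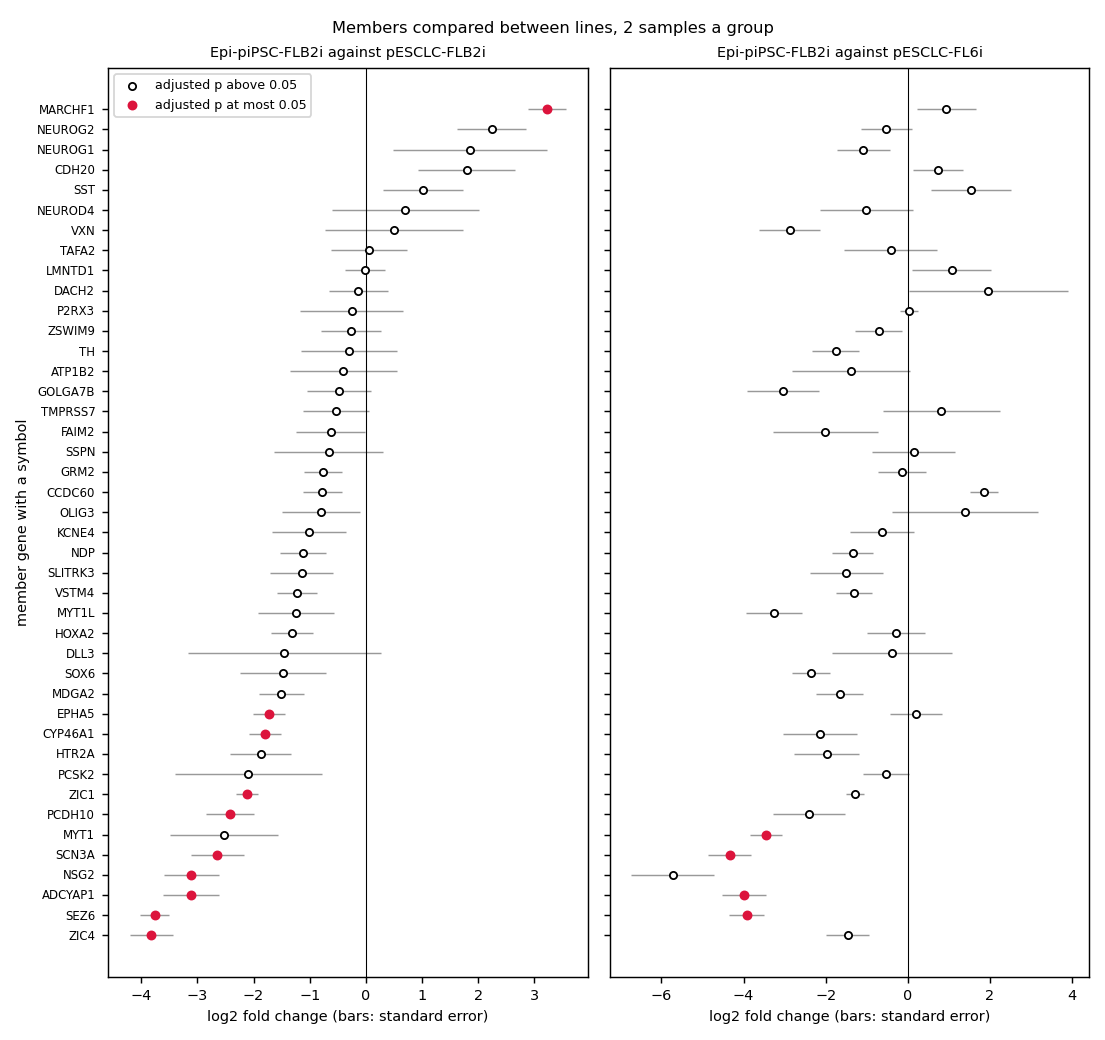
Log2 fold change (points) and its standard error (bars) of the 42 members with a symbol for Epi-piPSC-FLB2i against pESCLC-FLB2i (left) and against pESCLC-FL6i (right), 2 samples a group, with filled points for members at an adjusted p of at most 0.05. MARCHF1 stands at 3.23 on the left, and SEZ6, ADCYAP1 and SCN3A are filled below 0 on both sides.

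Since each of the 3 lines was sampled at different passages, the later and the earlier sample of each line were also compared, a comparison chosen after the values were seen. In both pESCLC lines, 10 of the 57 members were at least 2 times lower at the later passage, and 10 at least 2 times higher, on log2(normalized count + 1). Over the 14953 genes tested, 2.94% were that much lower in both and 7.03% higher. The median absolute log2 change of the members was 1.21 in pESCLC-FLB2i and 1.83 in pESCLC-FL6i, against 0.42 and 0.69 for all genes. In Epi-piPSC-FLB2i the members changed by a median of 0.30, against 0.21 for all genes. The rule took the mean of both passages, so a gene could enter through its level at 1 passage. With both samples of every group held to the thresholds, 19 of the 57 stayed. The larger changes of the members than of all genes are therefore partly set by how they were chosen.

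With no minimum size, 17 of the 57 members (29.8%) were lower at the later passage in both pESCLC lines and 22 (38.6%) were higher, against 31.1% and 29.8% of all genes tested. By role, 7 of the 11 transcription factors were lower in both and 1 was higher, and of the 7 receptors, channels and pumps 0 were lower and 5 higher. These roles hold few genes and were given with no test. The log2 difference of the later from the earlier passage was -2.09 in pESCLC-FLB2i and -5.19 in pESCLC-FL6i for OLIG3, -3.86 and -3.03 for NEUROD4, and -1.47 and -5.62 for DACH2. It was -5.35 and -4.22 for DLL3, and -3.38 and -1.36 for VXN, a gene known to promote neurogenesis. Among members higher in both, it was 2.89 and 4.17 for ATP1B2, 4.08 and 1.42 for PCSK2, 1.65 and 3.64 for FAIM2, an anti-apoptotic protein of neurons, and 2.76 and 2.59 for SSPN, a partner of the dystrophin complex.

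With the line as a block over the 6 samples, limma called 0 members and 0% of all genes for the later against the earlier passage. At an unadjusted p under 0.05 there were 9 members and 3.98% of all genes. DESeq2 called 2 members and 0.716% of all genes, and edgeR 0 of either, with 6 members at an unadjusted p under 0.05. The 2 were DLL3 (log2 fold change -3.42, DESeq2 adjusted p = 0.0183) and KCNE4 (1.49, DESeq2 adjusted p = 0.0193), which was higher at the later passage in 3 of 3 lines. Listed markers of fibroblasts and mesenchyme moved with passage. The 18 genes summed to 56335 and 193101 in pESCLC-FLB2i, to 42308 and 376827 in pESCLC-FL6i, and to 80497 and 69288 in Epi-piPSC-FLB2i, earlier sample first. Of these sums, VIM alone gave 45429 and 106261, 36594 and 45611, and 25011 and 24836 in the same order. COL1A1 was read at 239 and 6951, 165 and 155568, and 7216 and 6030. The later pESCLC-FL6i sample also had the fewest reads. Their part in the changes with passage was not tested.

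**Figure D3:**
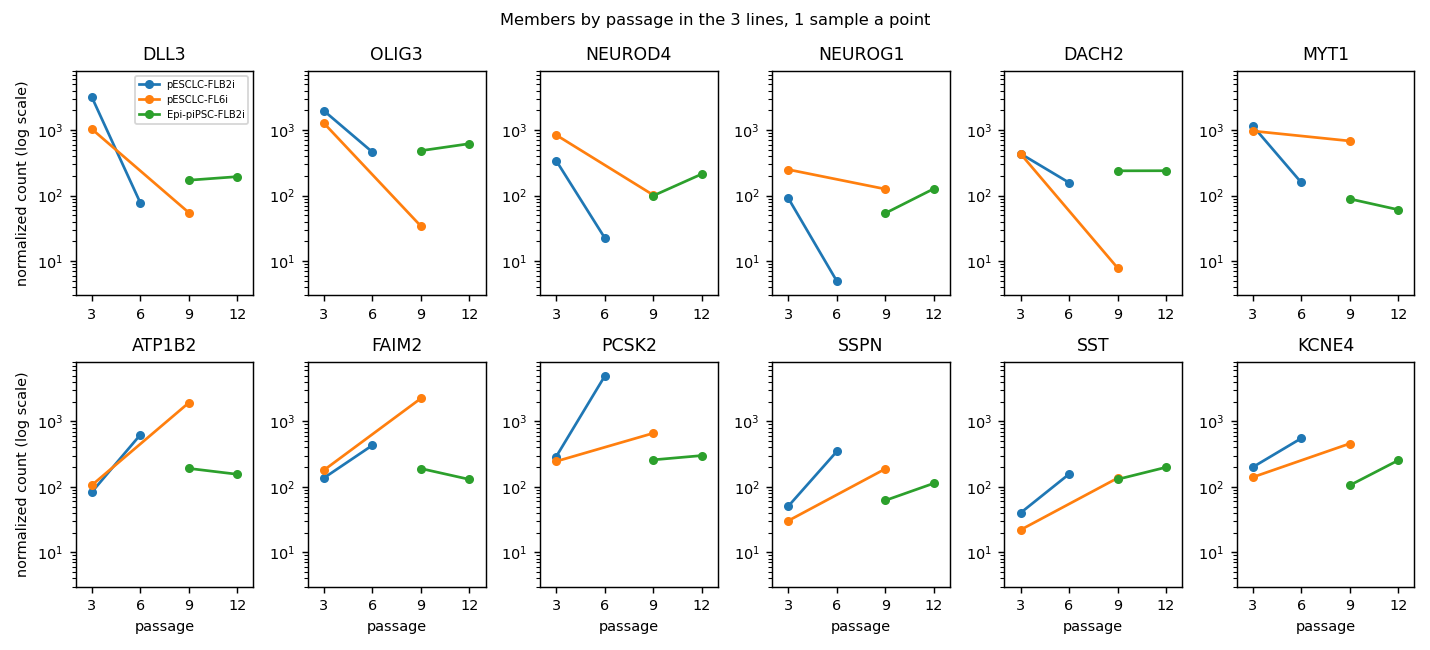
Normalized count (log axis) against passage, with 1 point per sample and lines joining the samples of 1 group. The top row holds 6 members of neurogenesis and patterning that were lower at the later passage in both pESCLC lines. The bottom row holds 6 other members that were higher in both. Members that went otherwise are not shown, such as the transcription factor SOX6, which was higher in both. DLL3 stands at 3211 and then 77.8 in pESCLC-FLB2i, and ATP1B2 at 106 and then 1926 in pESCLC-FL6i.

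To place the members among the other genes of their pathways, lists of genes were described by level. Of 45 neural genes, 41 were measured, and among these 5 were members (ZIC1, OLIG3, NEUROG1, NEUROG2 and NEUROD4). Of the 36 others, 24 reached a group mean of at least 40 in Epi-piPSC-FLB2i, 29 in pESCLC-FLB2i and 30 in pESCLC-FL6i, against 21 in Epi-piPSC-FL6i, 17 in Lv-piPSC-F, 14 in pESCLC-F and 16 in pESCLC-primary. These neural genes were not off together in Epi-piPSC-FL6i. STMN2, a tubulin-binding protein of neurons, was read at 28096 and 26938 there, against 1366 and 2132 in Epi-piPSC-FLB2i. PAX3, a dorsal neural factor, was read at 0.965 and 3.996 in Epi-piPSC-FL6i and at 806 and 765 in Epi-piPSC-FLB2i.

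In Epi-piPSC-FL6i against Epi-piPSC-FLB2i, limma called 30.4% of 14252 genes higher and 30.6% lower, so a call alone says little there. Of 406 listed genes tested, members left out, 109 were called higher and 214 lower. Of the 30 neural genes tested that were no members, 12 were higher and 14 lower in Epi-piPSC-FL6i, with a median log2 fold change of 0.01 against -0.021 for all genes. In Epi-piPSC-FLB2i against pESCLC-FLB2i, 30 neural genes that were no members were tested. Of these, 10 were called lower and 0 higher (all genes 6.67% and 4.24%), with a median of -1.14. Against pESCLC-FL6i, 7 of 31 were lower and 0 higher (all genes 1.83% and 0.72%), with a median of -2.03. PAX6, a factor of neural progenitors, gave -6.32 and -7.73 in these comparisons, and was read at 1.03 and 9.22 in Epi-piPSC-FLB2i.

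HOX genes pattern the body along its length. Of 33 HOX genes measured beside the member HOXA2, 24 reached a mean of 40 in Epi-piPSC-FLB2i, 22 in pESCLC-FLB2i and 23 in pESCLC-FL6i, against 3 of the 33 in Epi-piPSC-FL6i, 2 in Lv-piPSC-F and 0 in pESCLC-F. In pESCLC-primary 20 did, with sums over these genes of 3734 in 1 sample and 509.4 in the other. Of 32 genes tested of the HOX and CDX list without HOXA2, 28 were lower and 2 higher in Epi-piPSC-FL6i than in Epi-piPSC-FLB2i, with a median log2 fold change of -5.87. HOXB1, which acts in the hindbrain, was read at 886 and 979 in Epi-piPSC-FLB2i and had 0 in both Epi-piPSC-FL6i samples. HOXA5, of the cervical region, had 4033 and 3691 against 5.79 and 3.00. The higher ones were HOXD8 (log2 fold change 2.24) and MEIS2, a HOX cofactor (1.36). Epi-piPSC-FLB2i also had more of several of these genes than pESCLC-FLB2i. Of 31 tested, 11 were higher and 2 lower (all genes 4.24% and 6.67%). Among them was CDX2, a factor of the posterior body, read at 785 and 757 in Epi-piPSC-FLB2i and at 0.769 and 0 in pESCLC-FLB2i. None was called between pESCLC-FL6i and pESCLC-FLB2i by limma, where 0% of all genes were.

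**Figure D4:**
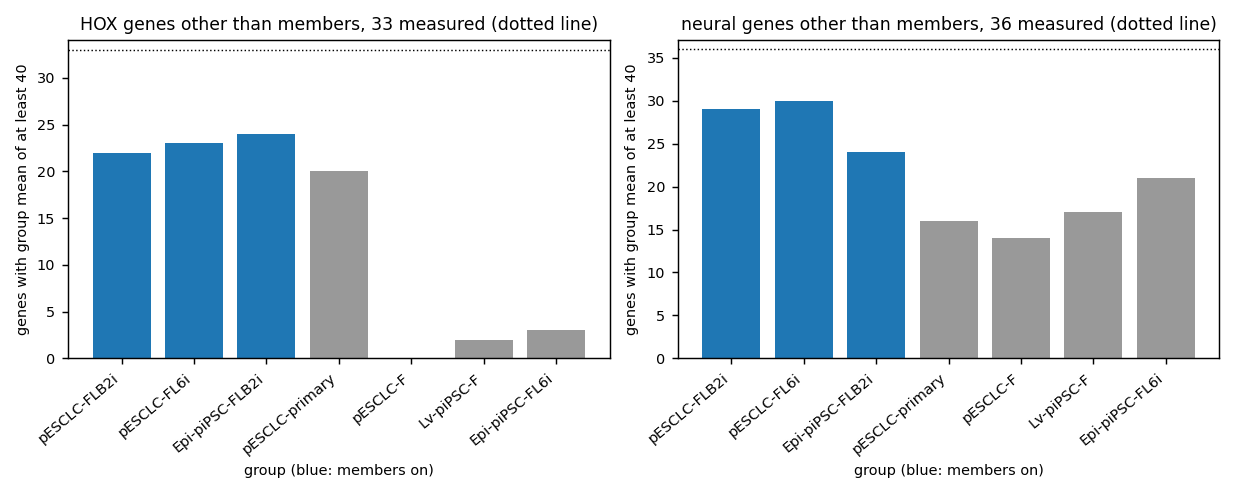
Number of HOX genes (left, 33 measured) and of neural genes (right, 36 measured), members left out, with a group mean of at least 40 normalized counts, by group, with the 3 groups in which members are on in blue. In Epi-piPSC-FL6i 3 HOX genes but 21 neural genes reach 40.

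Of the Notch list, 21 genes were measured and DLL3 was the only member. DLL1, a Notch ligand, was read at 3539 and 518 in pESCLC-FLB2i, and at 2709 and 637 in pESCLC-FL6i, with the earlier passage the higher in both, as for DLL3, and at 354 and 590.2 in Epi-piPSC-FLB2i. HES5, a Notch target, was read at 470.1 and 0.985, 1088 and 41.9, and 13.5 and 39.7. Unlike DLL3, DLL1 was also present in pESCLC-primary and pESCLC-F, at 597 to 1068. Of 17 other Notch genes tested, 9 were lower and 2 higher in Epi-piPSC-FL6i than in Epi-piPSC-FLB2i (all genes 30.6% and 30.4%). In Epi-piPSC-FLB2i against pESCLC-FLB2i, 2 of 17 (NOTCH3 and HEY2) were lower and 0 higher (all genes 6.67% and 4.24%). The cadherin and adhesion list had CDH20 and PCDH10 as members, and of its 30 other genes tested 17 were lower and 8 higher in Epi-piPSC-FL6i than in Epi-piPSC-FLB2i.

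Lists of the WNT, BMP, TGFB and FGF pathways, which the media address, held 0 members each. The member NDP, a Frizzled ligand, was not on the WNT list. Of 39 WNT genes tested 25 were lower and 9 higher in Epi-piPSC-FL6i than in Epi-piPSC-FLB2i, and of 31 BMP genes 18 were lower and 8 higher. The epithelial and trophoblast lists share the keratins KRT8 and KRT18, which made up 87.9 to 89.2% of the summed level of the first and 98 to 98.8% of that of the second in pESCLC-primary and pESCLC-F. Without them, a choice made after the values were seen, the 25 epithelial genes summed to 354 to 1813 in the pESCLC samples in inhibitor media and 5153 and 5928 in Epi-piPSC-FLB2i, against 46189 to 58110 in pESCLC-primary and pESCLC-F, 43826 and 56773 in Lv-piPSC-F, and 14256 and 18385 in Epi-piPSC-FL6i. The 15 remaining trophoblast genes summed to 587 to 1496 in the pESCLC samples in inhibitor media and to 4687 to 9248 in pESCLC-primary and pESCLC-F, while Epi-piPSC-FLB2i (2255 and 2424) and Epi-piPSC-FL6i (1963 and 2740) overlapped. In pESCLC-F most of this sum came from DAB2 (4827 and 6661) and TEAD4 (1653 and 1945). CDX2 (4.19 and 14.2) and TFAP2C (0 and 2.02) were low there, so the sum does not show more trophoblast cells. The 17 neural crest genes summed to 5894 to 9125 in the 6 samples with the members on and 1121 to 3370 in the others. By count, 13 of them reached a mean of 40 in pESCLC-primary, as many as in Epi-piPSC-FLB2i and pESCLC-FLB2i. In pESCLC-FL6i 12 did, in pESCLC-F and Lv-piPSC-F 8 each, and in Epi-piPSC-FL6i 4. SOX9 followed the sum, with 1020 to 2077 against 7.70 to 252. FOXD3 did not, with 3.94 to 129 in the 6 samples and 135 and 131 in Lv-piPSC-F. The sum therefore does not show more neural crest cells. Whether these cell mixtures had a part in the members' levels was not tested.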

How the data were processed

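mRNA libraries of 14 samples were sequenced in pairs with a stranded kit, and the authors aligned the reads to Sscrofa11.1 with TopHat2 2.1.0 and counted them on genes with HTSeq. Each signal value, as the authors deposited it, is a gene count divided by a DESeq2 size factor per sample. In every sample 100% of values were whole multiples of 1 read (largest deviation 1.8e-09 reads), which gave the reads back. Gene symbols were found for 14151 of 19588 genes from a table of Ensembl identifiers, and positions and promoters come from the RefSeq annotation of Sscrofa11.1.

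Members were found by the stated means, and pairs of groups were compared with limma 3.58.1 (R 4.3.3), its prior variance following the mean level, on log2(normalized count + 1). Genes entered a comparison if 2 or more of its 4 samples held 10 or more normalized counts. The Benjamini-Hochberg adjustment ran over all genes tested. Fold changes on this scale understate those of low genes. DESeq2 1.42.0 and edgeR 4.0.16 were run on recovered reads as alternatives, as the deposited values are not counts. Counting floors of 3 reads cover counting error only. The limma, edgeR and DESeq2 fits were tested on simulated data.

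The genes named were the 10 members with the highest lowest group mean, the 5 called members with the largest change in each direction, those at the edge of the rule, those on a list, and those next to another member or with its symbol root. Other members were named after their values were seen to give each role, as were the genes of the lists. The members and lists were chosen with earlier results of these data known, and the roles were assigned after the members were found.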

Additional observations from a re-analysis of the deposited data

Results flagged for a closer look

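NEUROD4 and VXN, both at least 2 times lower at the later passage in both pESCLC lines, went the other way in Epi-piPSC-FLB2i by at least 2 times. NEUROD4 was higher by 1.09 on the log2 scale at passage 12 than at passage 9 (99.4 and 213), and VXN by 1.30 (24.8 and 62.7). Each line gives 1 pair of samples and the difference between the lines was not tested.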

How the results depend on the processing

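The number of members moved with the thresholds: 107 at 30 and 20, 32 at 80 and 15, 19 at 40 and 5, 19 with both samples held to the thresholds, and 49 to 65 with 1 sample left out. Between pESCLC-FL6i and pESCLC-FLB2i the count of members was 0 in every alternative run other than DESeq2 (2, with 1.13% of all genes), and 0 with each sample left out. For Epi-piPSC-FLB2i against pESCLC-FLB2i, 11 members (all genes 10.9%) became 5 with fold changes under 3 (log2) left out (3.68%), 4 with the replicate block (4.49%), 4 in one fit on all 14 samples (13.1%), 20 with DESeq2 (21.4%), and 0 to 36 with 1 sample left out (0 to 39.7%). Against pESCLC-FL6i, 4 members (all genes 2.55%) became 0 with a pseudocount of 0.1, with all genes above 0 and with edgeR (0% each), 6 with the replicate block (5.03%), 9 in one fit on all 14 samples (28.5%), 20 with DESeq2 (17.9%), and 0 to 40 with 1 sample left out (0 to 58.6%). Between passages, DESeq2 called 2, and the other alternatives, leaving out a line included, 0. Of listed genes between the Epi-piPSC groups, members left out, 323 of 406 were called (all genes 61.0%), 278 to 288 with 1 sample left out (41.8 to 52.9%), 331 with the replicate block (61.2%), 327 with edgeR (61.4%), 176 in one fit on all 14 samples (27.9%) and 128 with fold changes under 3 (log2) left out (7.73%). Where 1 sample of a group is left, the spread comes from the other pair and the lone sample is assumed to vary alike. Same-numbered samples deviated together only between the pESCLC lines (correlation 0.41, and -0.074, -0.088 and -0.059 elsewhere), with 2 pairs each. In both pESCLC lines the number also gives the order of passage, so a shared change with passage is not kept apart from a pairing. Between these lines, limma with the replicate block had 14 members and 1158 genes at an unadjusted p under 0.05. The main run had 9 and 664. Of the called members, the log2 fold changes kept their sign in 225 of 225 alternatives and the call in 160. Depth limits members near the floor, as in pESCLC-FL6i at passage 9, where 3 reads are 7.86 normalized counts.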
